A study of Mus musculus with 70 samples.

Results

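The genes described here mark the ciliated cells of the airway lining. They were chosen by name from what is known of motile cilia, 37 in all, by a rule that uses no measured value, though earlier results of these data were known when they were listed. Of the 37, 35 had a probe set (a group of short DNA probes for 1 transcript) with a single gene symbol on the Affymetrix mouse genome array, out of 18193 genes with such a probe set. For Mcidas and Sntn no array values were analysed here, and only their promoters were read. A filter on the mean signal then left 34 of them among 14593 genes tested. The filter removed Spag17, whose mean log2 value over the 70 arrays was 4.13 against a limit of 4.25, and Deup1 at 4.91 and Ccdc39 at 5.03 were the nearest inside it.

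Ciliated cells line the bronchi and bronchioles and carry motile cilia that sweep mucus towards the throat. Each motile cilium is built on an axoneme, a ring of paired microtubules around a central pair, with dynein motor arms that slide the pairs and radial spokes and nexin links that keep them in register. A cell becomes multiciliated when regulators such as Foxj1 and Myb switch on, centrioles multiply in the cytoplasm, and the parts of the axoneme are made and carried to the cell surface. RNA from a whole lung lobe holds few such cells among alveolar cells, vessel cells and macrophages. In such bulk RNA, more ciliated cells and more RNA per ciliated cell cannot be told apart.

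The study measured gene expression in the right lung of 70 female B6C3F1 mice, 1 array per animal, after 13 weeks of exposure to 1 of 13 chemicals or a vehicle, at 18 weeks of age. Each chemical had earlier been classed as positive or negative for lung tumours in female mice of this strain in a long-term bioassay, and the study asked whether short-term expression separates those classes. The first set of animals, with 3 arrays per group, held corn oil controls, feed controls, and mice given 2,3-benzofuran in corn oil at 240 mg/kg (positive), 1,5-naphthalenediamine in feed at 2000 ppm (positive), N-(1-naphthyl)ethylenediamine dihydrochloride in feed at 2000 ppm (negative) or pentachloronitrobenzene in feed at 8187 ppm (negative). The second set had 8 corn oil controls and 4 arrays in each other group. Its other controls received water or plain feed. Corn oil carried coumarin (200 mg/kg, positive), 1,2-dibromoethane (62 mg/kg, positive) and benzene (100 mg/kg, positive). Its feed chemicals were 2,2-bis(bromomethyl)-1,3-propanediol at 1250 ppm (positive), 4-nitroanthranilic acid at 10000 ppm (negative), malathion at 16000 ppm (negative) and diazinon at 200 ppm (negative). N-methylolacrylamide at 50 mg/kg (positive) and 2-chloromethylpyridine hydrochloride at 250 mg/kg (negative) were given in water. Corn oil and water, in controls too, were given by gavage at 5 ml/kg on 5 days per week. Feed exposure ran 7 days per week. The set is the number before the hyphen in each animal's label, such as 2-75, and the labels do not explain it.

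All array medians lay between 5.41 and 5.52 on the log2 scale, and no pair of arrays held the same values. The tissue matched its label. Mean Sftpc, the alveolar type 2 cell surfactant protein C, lay between 14.32 and 14.40 in the 18 groups, and mean Scgb1a1, the club cell secretory protein, between 14.04 and 14.28. The goblet cell mucin Muc5ac lay between 5.08 and 5.72, and the basal cell keratin Krt5 between 5.36 and 5.83. All tests below are limma's moderated test over 14593 genes with Benjamini-Hochberg adjustment within a comparison, and a gene was called at an adjusted p under 0.05. Changes are differences of log2 values, with the standard error (SE) of the fit, and 1 on this scale is a doubling of signal. Probe sets differ in how brightly they bind, so levels are compared between arrays and not between genes.

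The 34 tested genes spanned much of the array's range, from a mean of 4.91 for Deup1, at the 29.1 percentile of all genes with a probe set, to 12.03 for Tppp3, a tubulin-binding protein. Dynlrb2 had a mean of 10.39, Cfap126 of 9.74, Rsph1 of 8.98 and Foxj1 of 8.78. The spread over all 70 arrays was widest for Ccdc39 (SD 1.15), Rsph4a (SD 0.85) and Dnah5 (SD 0.668), and narrowest for Dnah11 (SD 0.194) and Tppp3 (SD 0.209). Part of that width lay between the sets. In feed controls, Ccdc39 had a mean of 6.93 in the first set and 4.77 in the second, Dnah5 of 6.23 and 5.19, and Rsph4a of 7.31 and 6.45. Tekt4, at 7.11 and 7.89, and 1700016K19Rik, at 7.68 and 8.48, differed in the opposite direction. Treated and control arrays were therefore paired within a set.

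Averaged over the 34 genes, the 18 groups ran from 7.18 ± 0.0237 (SD, n = 3) with N-(1-naphthyl)ethylenediamine dihydrochloride to 8.06 ± 0.269 (SD, n = 3) with 2,3-benzofuran. Coumarin at 7.85 ± 0.217 (SD, n = 4) and 1,2-dibromoethane at 7.83 ± 0.213 (SD, n = 4) came next below 2,3-benzofuran, and neither of these neighbours differed from the other beyond its spread. Feed controls of the second set followed at 7.75 ± 0.255 (SD, n = 4) and 1,5-naphthalenediamine at 7.75 ± 0.0217 (SD, n = 3). Corn oil controls lay at 7.47 ± 0.193 (SD, n = 3) in the first set and 7.36 ± 0.234 (SD, n = 8) in the second, and benzene at 7.37 ± 0.171 (SD, n = 4).

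**Figure D1:**
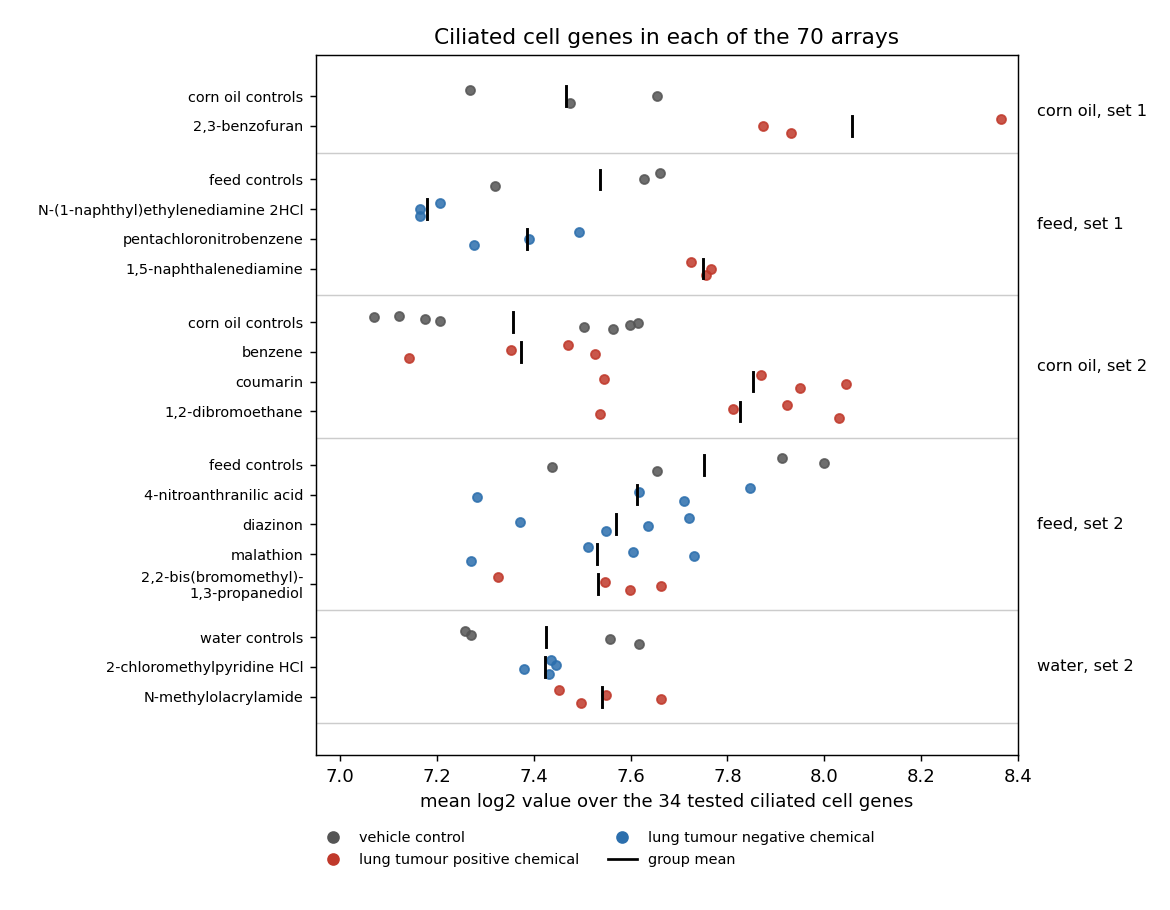
Mean log2 value over the 34 tested ciliated cell genes on each array, by group, vehicle and set; points are arrays, black lines group means, grey controls, red chemicals positive and blue chemicals negative for lung tumours. The means of 2,3-benzofuran, coumarin and 1,2-dibromoethane are the highest of the corn oil groups, although the lowest array of coumarin (7.55) and of 1,2-dibromoethane (7.54) lies below the highest controls, and the 8 corn oil controls of the second set spread from 7.07 to 7.62.

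The 8 corn oil controls of the second set spread widely in this average. Animals 2-134, 2-132, 2-59 and 2-60 lay at 7.07, 7.12, 7.18 and 7.21, and animals 2-97, 2-99, 2-95 and 2-93 at 7.50, 7.56, 7.60 and 7.62. The mean over 14 club cell genes moved with it, at 8.98, 9.33, 9.01 and 10.27 in the first 4 and 10.72, 10.27, 10.77 and 10.68 in the others. These animals were the controls of coumarin, 1,2-dibromoethane and benzene. Counts and medians of the 34 genes for those chemicals are therefore also given without the 4 lower controls, a choice made after their values were seen. Single animals stood apart in other control groups and in treated groups too. Of the 3 controls of 2,3-benzofuran, animal 1-22 was the lowest for 28 of the 34 genes. In feed controls, animal 1-29 of the first set was the lowest for 30, and 2-44 of the second for 31. Animal 1-10 was the highest of its 2,3-benzofuran group for 29 of the 34 genes, animal 2-75 the lowest of its coumarin group for 28, and animal 2-56 the lowest of its 1,2-dibromoethane group for 25.

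Ciliated cell genes were higher with 3 of the 4 corn oil chemicals. With 2,3-benzofuran, a fused furan and benzene ring system, 15 of the 34 genes rose and none fell, where 3.55% of all tested genes were called higher and 0.521% lower. With coumarin, a plant benzopyrone, 17 rose and none fell, where 2.91% of all genes were called higher and 1.18% lower. With 1,2-dibromoethane, a halogenated solvent and former fumigant, 15 rose and none fell, where 1.94% were called higher and 2.09% lower. Every treated array was above every control for 22 of the 34 genes with 2,3-benzofuran, beside 13% of all genes, for 11 with coumarin, beside 1.62%, and for 4 with 1,2-dibromoethane, beside 0.884%. The median change over the 34 genes was 0.57 with 2,3-benzofuran, 0.50 with coumarin and 0.50 with 1,2-dibromoethane, where the median over all tested genes was 0.06, -0.01 and 0.00. Without the 4 lower controls it was 0.30 with coumarin and 0.22 with 1,2-dibromoethane, and with array weights 0.36 with 2,3-benzofuran. All 34 changes were positive with 2,3-benzofuran and 1,2-dibromoethane, and 32 with coumarin. Coumarin and 1,2-dibromoethane were compared with the same 8 controls, and 2,3-benzofuran with 3 other corn oil animals. Of the 15 genes called with 2,3-benzofuran and the 17 called with coumarin, 12 were in both lists, which is 80% of the first and 70.6% of the second. For 2,3-benzofuran and 1,2-dibromoethane, with 15 called each, 10 were in both lists, 66.7% of each. All these lists were drawn from the same 34 genes, so some sharing would arise by chance alone, and the overlap was not tested. Without the 4 lower controls, 9 genes rose with coumarin and 7 with 1,2-dibromoethane, and Ccdc39 fell with coumarin, with a change of -0.99 (adjusted p 0.0299). Cfap126, Dynlrb2, Lrrc23, Meig1, Riiad1, Rsph1, Tctex1d4, Tekt4 and Wdpcp then kept their calls with coumarin, and Cfap126, Deup1, Dynlrb2, Myb, Rsph1 and Tekt4 with 1,2-dibromoethane. All other calls for these 2 chemicals against their corn oil controls were lost there. Fitted on the arrays of the compared pair of groups alone, the counts were 1 with 2,3-benzofuran, 9 with coumarin and 1 with 1,2-dibromoethane. Without animal 1-10, 3 genes rose with 2,3-benzofuran, and without control 1-22, 6 rose. Without animal 2-58, 8 rose with 1,2-dibromoethane, and without animal 2-52, 9 rose. The shares of all genes called under these alternatives are not given.

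**Figure D2:**
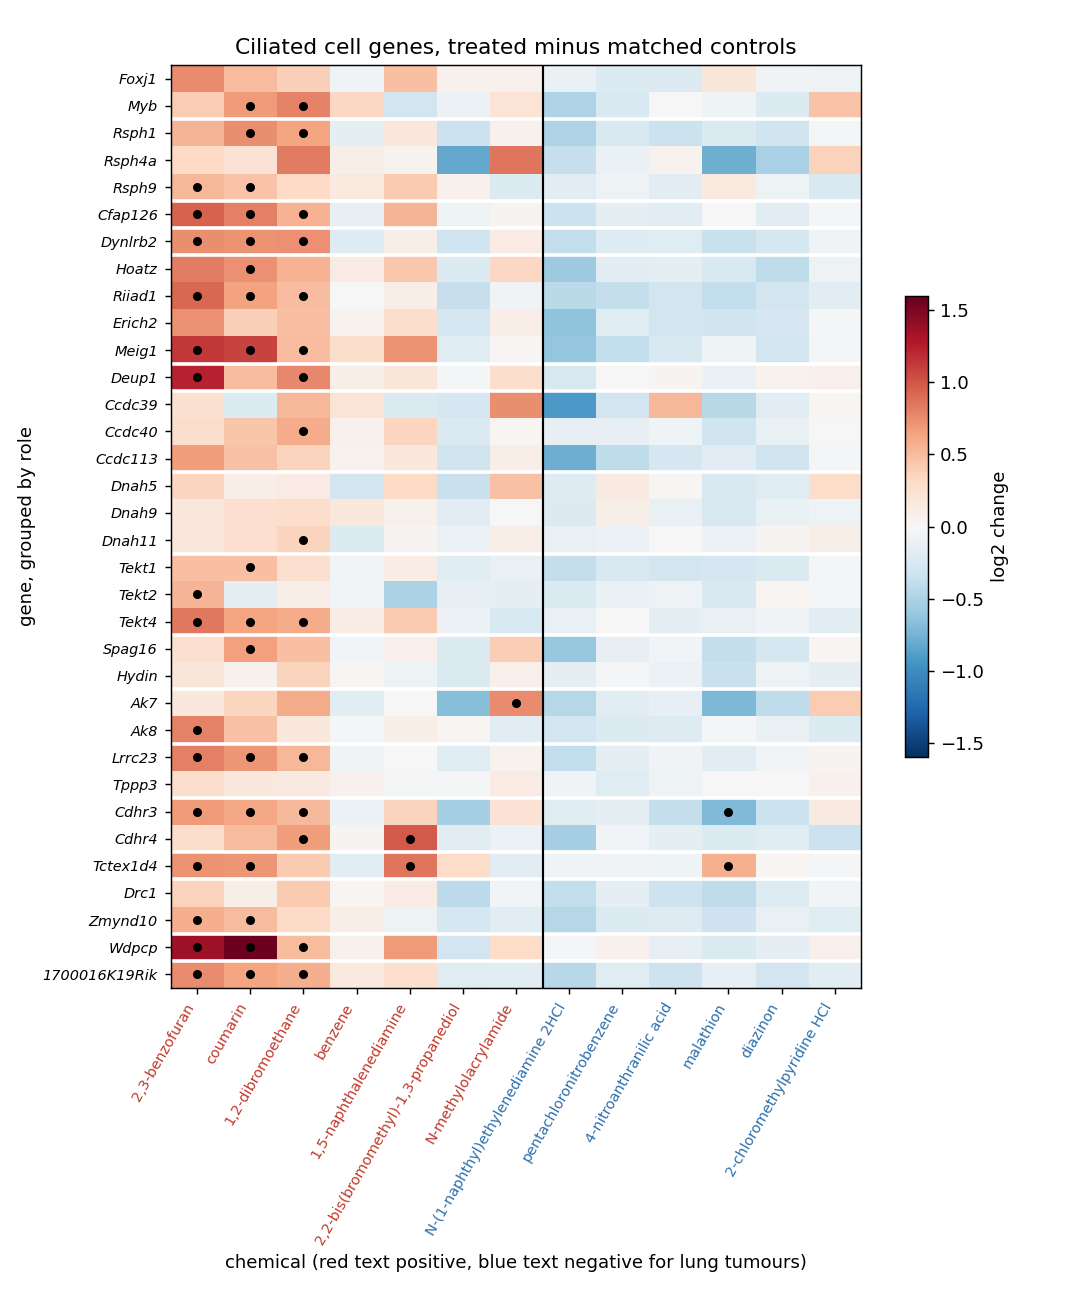
Log2 change of each of the 34 tested ciliated cell genes (vertical axis, grouped by role with white lines) for the 13 chemicals (horizontal axis, positive chemicals left of the line), with a black dot where the limma test made a call. Calls gather in the columns of 2,3-benzofuran, coumarin and 1,2-dibromoethane, with 15, 17 and 15 genes higher.

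Promoters are shown for 4 of the 9 genes that rose with all 3 chemicals, because ciliary genes are known for sharing binding sites of RFX factors, regulators of ciliary genes that act beside Foxj1. Each covers 250 bases before to 50 after the gene's start, from RefSeq on GRCm38.p6, 5′ to 3′ on the gene's strand. Capitals mark the letters GTTGCC or their reverse complement GGCAAC, the core of an RFX site, searched on both strands. Dynlrb2, at chr8:116504765-116505064 on the plus strand, held 1 match. Lrrc23, at chr6:124779678-124779977 on the minus strand, held 2 matches, and Tekt4, at chr17:25471340-25471639 on the plus strand, held 1. Wdpcp, at chr11:21572031-21572330 on the plus strand, held none. Dynlrb2, Lrrc23 and Tekt4 were picked to show a match, and Wdpcp, after its values were seen, as the gene with the largest change. Of the other 5, Cdhr3 held 1 match, Cfap126 and Meig1 held none in any of their 3 promoters each, and Riiad1 and 1700016K19Rik were not searched.
Dynlrb2: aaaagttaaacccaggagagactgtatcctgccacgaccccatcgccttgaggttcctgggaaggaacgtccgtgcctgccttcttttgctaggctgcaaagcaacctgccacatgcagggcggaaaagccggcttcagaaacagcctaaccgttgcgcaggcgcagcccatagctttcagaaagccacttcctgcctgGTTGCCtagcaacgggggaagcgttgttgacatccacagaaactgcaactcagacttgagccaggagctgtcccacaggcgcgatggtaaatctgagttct
Lrrc23: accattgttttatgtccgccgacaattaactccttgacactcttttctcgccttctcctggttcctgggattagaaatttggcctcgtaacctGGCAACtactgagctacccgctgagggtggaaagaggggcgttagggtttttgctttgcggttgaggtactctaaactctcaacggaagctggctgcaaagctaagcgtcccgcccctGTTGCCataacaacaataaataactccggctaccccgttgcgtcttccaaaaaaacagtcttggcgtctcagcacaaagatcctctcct
Tekt4: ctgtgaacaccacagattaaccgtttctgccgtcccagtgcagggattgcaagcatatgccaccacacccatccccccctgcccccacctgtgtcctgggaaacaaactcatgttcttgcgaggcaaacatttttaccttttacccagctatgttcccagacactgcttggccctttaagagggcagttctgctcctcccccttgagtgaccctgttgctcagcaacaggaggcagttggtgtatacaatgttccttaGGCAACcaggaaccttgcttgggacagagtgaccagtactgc
Wdpcp: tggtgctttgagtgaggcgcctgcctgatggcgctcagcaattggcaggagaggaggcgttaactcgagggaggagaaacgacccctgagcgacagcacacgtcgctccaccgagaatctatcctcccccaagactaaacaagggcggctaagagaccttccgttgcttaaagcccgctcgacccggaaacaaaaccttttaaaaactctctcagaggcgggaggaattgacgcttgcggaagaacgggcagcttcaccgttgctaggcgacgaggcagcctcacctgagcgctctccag
Of the 31 ciliated cell genes with a promoter in that table, 16 (51.6%) held at least 1 such match, where 3821 of 27025 genes (14.1%) did. The forkhead core GTAAACA, or its reverse complement TGTTTAC, was found in 3 of the 31 (9.68%) and in 4.05% of all genes, and neither motif contains the letters of the other. A match is a description of the letters and not a binding site.

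Among the regulators of multiciliation, 1 of 3 tested genes rose with 2,3-benzofuran, 1 with coumarin and 2 with 1,2-dibromoethane. Foxj1, the forkhead factor that switches on genes of motile cilia, read 8.83, 8.47 and 8.87 with 2,3-benzofuran against 7.84, 7.93 and 8.11 in its controls. All 3 treated arrays were above the 3 controls, and the change of 0.76 (SE 0.26) had an adjusted p of 0.0846. With coumarin Foxj1 read 9.58, 9.52, 9.33 and 9.22 and with 1,2-dibromoethane 9.69, 9.38, 9.03 and 9.02, against a lowest value of 8.24, a median of 8.86 and a highest of 9.64 in the 8 controls. Both groups lay inside the range of their controls or overlapped it, with changes of 0.51 (SE 0.20, adjusted p 0.141) and 0.38 (SE 0.20, adjusted p 0.279). Foxj1 was called in none of the 13 chemicals by limma.

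Deup1, which builds the deuterosomes on which centrioles multiply, read 6.30, 5.85 and 6.05 with 2,3-benzofuran and 4.80, 4.84 and 4.88 in its controls. The groups did not overlap, and Deup1 rose by 1.23 (SE 0.21, adjusted p 0.000158), 2.34-fold. With 1,2-dibromoethane it read 5.01, 6.19, 4.77 and 5.41, against a range of 4.23 to 4.79 with a median of 4.65 in the 8 controls. Animal 2-56 lay at the top of the control range and the other 3 above it, and Deup1 rose by 0.76 (SE 0.16, adjusted p 0.00265). With coumarin the change of 0.50 had an adjusted p of 0.0554.

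Myb, a transcription factor of the early steps towards multiciliation that also acts in blood progenitors, read 8.60, 8.38, 8.89 and 8.99 with coumarin and 8.48, 8.95, 8.95 and 8.88 with 1,2-dibromoethane. The 8 controls ran from 7.42 to 8.71 with a median of 7.95, so both treated groups overlapped them, with all treated arrays above the control median. Myb rose by 0.69 (SE 0.17, adjusted p 0.00879) and 0.79 (SE 0.17, adjusted p 0.00419). All 3 probe sets of Myb gave positive changes, 0.69, 0.47 and 0.65 with coumarin and 0.79, 0.48 and 0.61 with 1,2-dibromoethane.

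The radial spokes reach from the outer microtubule pairs to the central pair. Of 3 spoke head genes, 1 rose with 2,3-benzofuran, 2 with coumarin and 1 with 1,2-dibromoethane. Rsph1 read 9.44, 9.37, 9.65 and 9.40 with coumarin and 9.44, 9.28, 9.23 and 9.48 with 1,2-dibromoethane, against 8.40 to 9.06 with a median of 8.68 in the 8 controls. Both groups were wholly above the controls, and Rsph1 rose by 0.74 (SE 0.13, adjusted p 0.000119) and 0.64 (SE 0.13, adjusted p 0.00301). With 2,3-benzofuran Rsph1 read 10.03, 9.16 and 9.59 against 8.76, 9.30 and 9.08, groups that overlapped, with a change of 0.55 (adjusted p 0.0608). Rsph9 rose by 0.53 with 2,3-benzofuran and 0.46 with coumarin, with adjusted p of 0.0487 and 0.0179. Rsph4a, with its wide spread, had a difference of 0.83 with 1,2-dibromoethane at an adjusted p of 0.131.

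Of the 6 tektins and other microtubule proteins, 4 rose with 2,3-benzofuran, 4 with coumarin and 3 with 1,2-dibromoethane. Cfap126, also known as Flattop and needed to place basal bodies in mouse multiciliated cells, read 10.74, 10.00 and 10.06 with 2,3-benzofuran against 9.13, 9.47 and 9.39 in the controls. It read 10.45, 10.18, 10.38 and 10.35 with coumarin and 10.40, 10.04, 9.67 and 10.25 with 1,2-dibromoethane, against 9.26 to 9.78 with a median of 9.55 in the controls of the second set. The 2,3-benzofuran and coumarin arrays were all above their controls, and among the 1,2-dibromoethane arrays only animal 2-56 reached into the control range. Cfap126 rose by 0.94 (SE 0.17, adjusted p 0.000376), 0.81 (SE 0.13, adjusted p 1.05e-05) and 0.56 (SE 0.13, adjusted p 0.00704) in that order.

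Tekt4, one of the tektins that run as filaments inside the microtubule pairs, read 8.36, 7.81 and 7.75 with 2,3-benzofuran against 6.77, 7.42 and 7.19, without overlap. It rose by 0.85 (SE 0.18, adjusted p 0.00248), and by 0.63 with coumarin and 0.59 with 1,2-dibromoethane, with adjusted p of 0.00132 and 0.00612. Tekt2 rose by 0.55 with 2,3-benzofuran (adjusted p 0.0239) but had a change of -0.16 with coumarin (adjusted p 0.522). Tekt1 rose by 0.48 with coumarin (adjusted p 0.0268). Lrrc23, a leucine-rich repeat protein of motile cilia and sperm tails, rose by 0.81, 0.71 and 0.53 with 2,3-benzofuran, coumarin and 1,2-dibromoethane, and its adjusted p ran from 0.000203 to 0.0132. Tppp3, whose signal was the highest of the 34, had changes of 0.28, 0.17 and 0.14, none called.

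Of the 5 genes of axonemal dyneins and dynein subunits, 2 rose with each of the 3 chemicals. With 2,3-benzofuran and coumarin these were the light chain genes Dynlrb2 and Tctex1d4, and the heavy chains Dnah5, Dnah9 and Dnah11 were not called. Dynlrb2, a roadblock-type light chain abundant in cells with motile cilia, read 11.32, 10.44 and 10.60 with 2,3-benzofuran against 9.85, 10.24 and 10.07. It read 10.97, 10.64, 11.16 and 11.01 with coumarin and 11.09, 10.93, 10.70 and 11.13 with 1,2-dibromoethane, against 10.09 to 10.38 with a median of 10.21 in the controls of the second set. All 3 groups were wholly above their controls. Dynlrb2 rose by 0.74 (SE 0.18, adjusted p 0.0126), 0.71 (SE 0.14, adjusted p 0.000431) and 0.73 (SE 0.14, adjusted p 0.00097). Tctex1d4, a Tctex1-family light chain, rose by 0.72 with 2,3-benzofuran (adjusted p 0.0184) and 0.71 with coumarin (adjusted p 0.000692). The outer arm heavy chains gave smaller values. Dnah5 had values of 0.34, 0.10 and 0.14 and was not called, with a 95% interval from -0.26 to 0.46 for coumarin. Dnah9, at 0.17 with 2,3-benzofuran and 0.27 with coumarin, was not called either. Dnah11 rose with 1,2-dibromoethane by 0.36 (SE 0.10, adjusted p 0.0339).

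Among the 5 genes for arm assembly, docking and nexin links, 1 rose with each chemical. Zmynd10, which helps to assemble dynein arms in the cytoplasm, rose by 0.59 with 2,3-benzofuran (adjusted p 0.0257) and 0.50 with coumarin (adjusted p 0.00721). Ccdc40, part of the ruler that spaces the arms along the axoneme, rose by 0.59 with 1,2-dibromoethane (SE 0.14, adjusted p 0.00946). Its partner Ccdc39 was not called and had a change of -0.21 with coumarin (adjusted p 0.799). Of the central pair genes, Spag16 rose with coumarin by 0.66 (adjusted p 0.0167), a call lost without animal 2-72 or 2-80, in the fit on these groups alone and with the mean over probe sets, where the change was 0.19 (adjusted p 0.123). Hydin was called with no chemical. Of the adenylate kinases, which recycle nucleotides for the motors, Ak8 rose with 2,3-benzofuran by 0.79 (SE 0.23, adjusted p 0.0319).

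All 3 genes of the apical membrane and planar polarity rose with 1,2-dibromoethane and 2 of 3 with each of 2,3-benzofuran and coumarin. Wdpcp, a planar polarity effector needed for ciliogenesis, had the largest change of the 34 genes with 2,3-benzofuran and with coumarin. It read 8.44, 7.69 and 7.45 with 2,3-benzofuran against 6.45, 6.67 and 6.42 in the controls. It read 7.92, 7.48, 8.25 and 8.19 with coumarin against 6.09 to 6.59 with a median of 6.46 in the 8 controls, and 7.32, 6.89, 6.24 and 7.13 with 1,2-dibromoethane. The first and second of these groups did not overlap their controls, while animal 2-56 of 1,2-dibromoethane lay inside the control range. Wdpcp rose by 1.35 (SE 0.21, adjusted p 2.53e-05), 1.57 (SE 0.16, adjusted p 4.84e-11) and 0.51 (adjusted p 0.0481). These values come from the brighter of its probe sets. The other had a mean of 3.22, under the filter, and changes of -0.11, 0.04 and -0.02. Averaged over both probe sets, the change was 0.62 with 2,3-benzofuran, 0.80 with coumarin and 0.25 with 1,2-dibromoethane, where the call was lost (adjusted p 0.172). The call of Wdpcp with 1,2-dibromoethane was lost under 13 of 22 alternatives, among them leaving out animal 2-52, 2-54 or 2-58 or any 1 of 6 controls.

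Cdhr3, a cadherin-related protein known in humans as a rhinovirus C receptor on ciliated cells, rose by 0.68, 0.61 and 0.52, with adjusted p of 0.0217, 0.00323 and 0.0224. Cdhr4, its relative, read 9.49, 9.48, 8.91 and 9.57 with 1,2-dibromoethane against 8.28 to 9.17 with a median of 8.71 in the controls. Animal 2-56 overlapped the controls, and Cdhr4 rose by 0.67 (SE 0.17, adjusted p 0.0132). With coumarin its difference was 0.50 (adjusted p 0.0716).

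Among the 5 remaining genes, 3 rose with 2,3-benzofuran, 4 with coumarin and 3 with 1,2-dibromoethane. Meig1, known in mice for its part in forming sperm, read 8.99, 7.95 and 7.66 with 2,3-benzofuran against 6.84, 7.41 and 6.96 in the controls. It read 8.10, 8.09, 8.39 and 8.33 with coumarin and 7.90, 7.61, 7.20 and 7.86 with 1,2-dibromoethane, against 6.92 to 7.43 with a median of 7.11 in the second set. The 2,3-benzofuran and coumarin arrays were all above their controls, and animal 2-56 of 1,2-dibromoethane lay inside the control range. Meig1 rose by 1.13 (SE 0.20, adjusted p 0.000302), 1.08 (SE 0.15, adjusted p 7.72e-07) and 0.50 (adjusted p 0.0464). Riiad1, named for its regulatory subunit type domain, rose by 0.92, 0.64 and 0.50, and 1700016K19Rik, named only by its clone, by 0.76, 0.63 and 0.59. Hoatz, a cilia and flagella associated protein, rose with coumarin by 0.73 (SE 0.20, adjusted p 0.025), and its change of 0.82 with 2,3-benzofuran had an adjusted p of 0.0696.

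**Figure D3:**
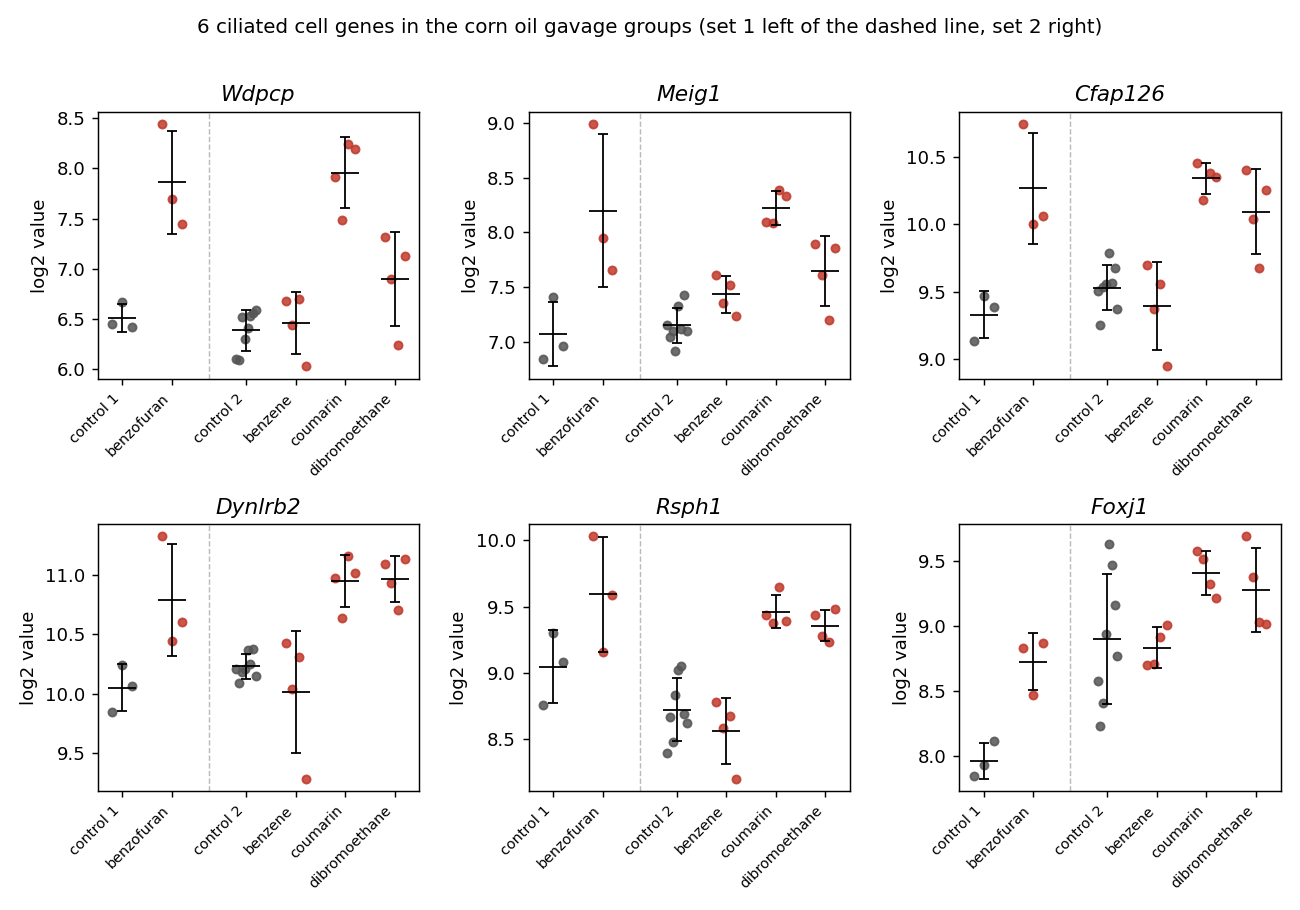
Log2 value of Wdpcp, Meig1, Cfap126, Dynlrb2, Rsph1 and Foxj1 on each array of the 6 corn oil groups (first set left, second set right), with mean ± SD. Dynlrb2 is higher on every array of 2,3-benzofuran, coumarin and 1,2-dibromoethane than on any of their controls, while Foxj1 overlaps its controls with coumarin and 1,2-dibromoethane.

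Benzene, given in the same vehicle and set as coumarin and 1,2-dibromoethane, left these genes near their controls. By limma 0 of the 34 were called in either direction, 1 had an unadjusted p under 0.05, and 0.0822% of all genes were called higher and 0.00685% lower. The median change was 0.04, and 20 of the 34 changes were positive. This sign was not stable, since the median was -0.02 with quantile normalization, -0.00427 with the mean over probe sets and -0.23 without the 4 lower controls, where again 0 genes were called by limma. Dynlrb2 read 10.43, 10.04, 10.31 and 9.29, with animal 2-90 the lowest, and its change was -0.21 with a 95% interval from -0.49 to 0.07. For Cfap126 it was -0.14 (interval -0.39 to 0.12), for Rsph1 -0.16 (interval -0.42 to 0.11) and for Foxj1 -0.07 (interval -0.46 to 0.33).

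Set directly against benzene, with no control array in the comparison, 13 of the 34 genes were higher with coumarin and 0 lower, where 2.56% of all genes were called higher and 2.28% lower. Wdpcp differed by 1.50 (SE 0.18, adjusted p 3.79e-08), Cfap126 by 0.95 (adjusted p 1.79e-05), Dynlrb2 by 0.92 (adjusted p 0.000112) and Rsph1 by 0.90 (SE 0.15, adjusted p 8.09e-05). With 1,2-dibromoethane against benzene 13 were also higher and 0 lower, beside 2.41% and 6.92% of all genes, among them Dynlrb2 by 0.94 (SE 0.16, adjusted p 0.000246), Rsph1 by 0.80 (adjusted p 0.00134), Cfap126 by 0.70 (adjusted p 0.00359) and Dnah11 by 0.57 (adjusted p 0.00276). Both comparisons share the benzene animals. In the mean over 14 club cell genes, benzene animals 2-90 and 2-82 lay at 9.13 and 9.29, and 2-85 and 2-86 at 10.16 and 10.69. In a fit on the compared groups alone, 7 genes were called for coumarin and 0 for 1,2-dibromoethane by limma. For 1,2-dibromoethane, 8 were called without benzene animal 2-85, 5 without 2-90, and 7 without 1,2-dibromoethane animal 2-52 or 2-58.

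Coumarin and 1,2-dibromoethane differed for 1 of the 34 genes, where 0.85% of all genes were called lower with 1,2-dibromoethane and 0.692% higher. Wdpcp was lower with 1,2-dibromoethane by a change of -1.06 (SE 0.18, adjusted p 0.00051), with no array of one group inside the range of the other. Meig1 had a difference of -0.58 (SE 0.17, adjusted p 0.0632). Without animal 2-52 or 2-58 the count was 2. For Dynlrb2 the difference was 0.02 with a 95% interval from -0.30 to 0.34, for Rsph1 -0.11 (interval -0.41 to 0.20) and for Foxj1 -0.13 (interval -0.59 to 0.33). Doses differed between these chemicals, so the values stand side by side without a statement on potency.

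Other gene lists were read in the same comparisons. Of 48 further axonemal structure genes tested, 13 rose with 2,3-benzofuran, 15 with coumarin, 11 with 1,2-dibromoethane and 0 with benzene, and their median changes were 0.52, 0.35, 0.35 and 0.00. Morn5 rose by 0.91 with 2,3-benzofuran and 1.00 with coumarin, and Cfap54, a central pair protein, by 0.96 with 1,2-dibromoethane. Of 20 further axonemal dyneins and assembly factors, 2, 4, 3 and 0 rose in that order, with Dnah7a, an inner arm heavy chain, up by 1.13 with 2,3-benzofuran (adjusted p 0.00108). Of 21 genes of intraflagellar transport, which carries parts along the growing cilium, 5, 4, 1 and 0 rose. Of 7 further regulators of multiciliation, 0, 0, 1 and 0 rose. The 1 was Trp73, the p53-family factor upstream of Foxj1, which rose with 1,2-dibromoethane by 0.42 (adjusted p 0.0406).

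Markers of the neighbouring airway cells were read too. Of 14 club cell genes, 0 rose with 2,3-benzofuran, 5 with coumarin, 3 with 1,2-dibromoethane and 0 with benzene, with median changes of 0.15, 0.55, 0.42 and -0.05. The mean over these genes ran from 10.41 to 10.75 with 2,3-benzofuran against 10.22 to 10.78 in its controls. It ran from 10.37 to 11.15 with coumarin, 10.01 to 11.09 with 1,2-dibromoethane and 9.13 to 10.69 with benzene, against 8.98 to 10.77 in theirs. For coumarin, 1,2-dibromoethane and benzene, the values of all these other lists against controls include the 4 lower corn oil controls. They are not given without them. Of 5 goblet cell genes, 2 rose with coumarin and 2 with 1,2-dibromoethane. Agr2, a protein of mucus-secreting cells, rose with coumarin by 2.64 (SE 0.35, adjusted p 2.2e-07). None of the 4 basal cell genes was called with any of the 4 chemicals against its controls. Directly against benzene, 3 of the 4 basal, 4 of the 14 club and 2 of the 5 goblet cell genes were higher with coumarin, with medians of 0.46, 0.57 and 0.76. With 1,2-dibromoethane against benzene the counts were 0, 2 and 2, with medians of 0.23, 0.44 and 0.50. Among 5 airway cartilage genes, 1 rose with coumarin, with a median change of 0.37 and a lowest of -0.21. The 1 was Chad, a cartilage matrix protein of the airway wall, up by 1.57 (adjusted p 1.08e-06). The share of each cell type in the dissected lobe was not measured, and its part in the ciliated cell counts was not tested. RNA quality was read from the arrays and from the RNA integrity number (RIN) in the labels. The 3′ minus 5′ signal of control probe sets, a measure of RNA decay, had means of 0.262 and 0.271 in 2,3-benzofuran and its controls (exact permutation test, two-sided, p = 1), 0.182 and 0.217 in coumarin and its controls (p = 0.349) and 0.386 and 0.217 in 1,2-dibromoethane and its controls (p = 0.273). Mean RIN was 8.02 with coumarin and 7.92 with 1,2-dibromoethane against 8.45 in their controls (same exact test, p = 0.0606 and 0.103), and 9.17 with 2,3-benzofuran against 8.75 in the 2 of its controls that have one (p = 0.2). Its part in the counts was not tested.

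**Figure D4:**
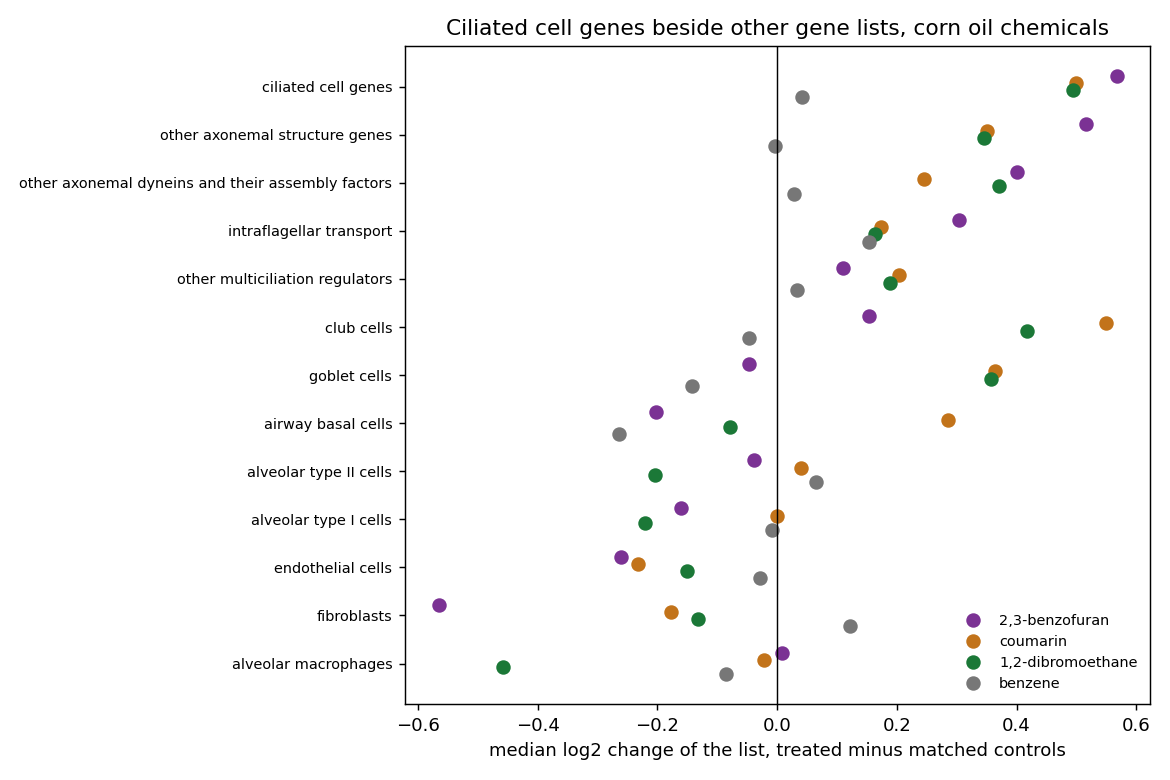
Median log2 change per gene list (vertical axis) for the 4 corn oil chemicals. The ciliated cell genes and the other axonemal structure genes lie above 0 with 2,3-benzofuran, coumarin and 1,2-dibromoethane and near 0 with benzene, and the club cell genes are highest with coumarin at 0.55.

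The 7 feed chemicals gave few calls in these genes. With 1,5-naphthalenediamine, 2 of the 34 rose and none fell, beside 0.959% of all genes called higher and 0.151% lower. Cdhr4 read 9.38, 9.54 and 9.52 against 8.56, 8.72 and 8.21 in its feed controls, and Tctex1d4 read 7.42, 7.75 and 7.53 against 6.77, 6.97 and 6.41. Neither gene's groups overlapped, and they rose by 0.98 (SE 0.22, adjusted p 0.00657) and 0.85 (SE 0.19, adjusted p 0.00544). Without animal 1-4, 1 gene was called, and without control 1-29, 0 by limma. The median change was 0.14, and Foxj1 stood at 0.49 (adjusted p 0.634).

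With N-(1-naphthyl)ethylenediamine dihydrochloride all 34 changes were negative, with a median of -0.38 where the median over all genes was -0.01. By limma 0 were called, the smallest adjusted p was 0.445, and 17 had an unadjusted p under 0.05, while 0% of all genes were called lower and 0.00685% higher. For 17 of the 34, every treated array was below every control, beside 11.4% of all genes. The changes ran from -0.92 for Ccdc39 to -0.02 for Wdpcp, with Foxj1 at -0.10, Rsph1 at -0.49, Cfap126 at -0.35 and Dynlrb2 at -0.39.

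1,5-naphthalenediamine and N-(1-naphthyl)ethylenediamine dihydrochloride are both naphthalene amines, given in feed at 2000 ppm to animals of the first set. The first carries an amine on each ring and was positive for lung tumours, and the second carries an ethylenediamine side chain and was negative. They share 3 feed controls, and the comparison of the treated arrays was added after those above were seen. In it 9 of the 34 genes were higher with 1,5-naphthalenediamine and 0 lower, beside 1.49% of all genes called higher and 0.178% lower. Every 1,5-naphthalenediamine array was above every array of the other chemical for 28 of the 34, beside 12.3% of all genes. Meig1 read 7.76, 7.75 and 7.78 against 6.46, 6.41 and 6.37, with no overlap and a difference of 1.35 (SE 0.20, adjusted p 3.39e-06). Cdhr4 differed by 1.52 (SE 0.22, adjusted p 2.06e-06), Cfap126 by 0.90 (adjusted p 0.000463) and Rsph1 by 0.67 (adjusted p 0.0247). Foxj1 differed by 0.59 and was not called (adjusted p 0.383). Without any 1 of animals 1-2, 1-5, 1-12 and 1-15, 4 were called, without 1-4, 5, and in a fit on these groups alone, 21. The shares of all genes called in these fits are not given.

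Malathion, an organophosphate insecticide, was the other feed chemical with calls, 1 higher and 1 lower beside 1.03% and 1.16% of all genes. Tctex1d4 read 7.67, 7.83, 8.11 and 7.71 against 7.41, 7.41, 6.96 and 7.27, without overlap, and rose by 0.57 (SE 0.16, adjusted p 0.0477). Cdhr3 read 7.49, 7.19, 7.41 and 6.97 against 8.06, 8.27, 7.68 and 7.85, also without overlap, and had a change of -0.70 (SE 0.16, adjusted p 0.0086). The call of Tctex1d4 was lost under 6 other settings, and without any 1 of 7 of the 8 arrays. The count of lower genes was 0 without animal 2-39 and 2 without control 2-44. Diazinon, another organophosphate, had a median change of -0.18 and 0 calls by limma, with 3 unadjusted p under 0.05, beside 0% of all genes called higher and 0.00685% lower. Its changes ran from -0.53 for Rsph4a to 0.06 for Deup1, with Foxj1 at -0.06, Rsph1 at -0.33, Cfap126 at -0.16 and Dynlrb2 at -0.28.

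For 2,2-bis(bromomethyl)-1,3-propanediol the median change was -0.21 and 30 of the 34 changes were negative. By limma 0 were called, 7 had an unadjusted p under 0.05, and 0% of all genes were called in either direction. Changes ran from -0.82 for Rsph4a to 0.29 for Tctex1d4, with Foxj1 at 0.07, Rsph1 at -0.35, Cfap126 at -0.08 and Dynlrb2 at -0.31. For 4-nitroanthranilic acid the median was -0.15, with 0 calls by limma, 4 unadjusted p under 0.05 and 0% of all genes called. There Cdhr3 had the lowest change at -0.38, Ccdc39 the highest at 0.53, and Foxj1, Rsph1, Cfap126 and Dynlrb2 lay between -0.34 and -0.17. For pentachloronitrobenzene it was -0.15, with 0 calls by limma, 1 unadjusted p under 0.05 and 0% of all genes called lower and 0.00685% higher. There the range was -0.40 for Ccdc113 to 0.15 for Dnah5, and the same 4 genes lay between -0.25 and -0.14. Within each set the feed chemicals share their controls, so their values are not independent.

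With water as the vehicle, N-methylolacrylamide gave 1 call higher among the 34 genes, beside 10.7% of all genes called higher and 7.13% lower, so its share lay under the background. Ak7 read 8.35, 8.92, 9.02 and 8.71 against 7.67, 7.51, 8.25 and 8.54 in the water controls. The ranges overlapped, and Ak7 rose by 0.76 (SE 0.25, adjusted p 0.0277). Without animal 2-102 or 2-106 or control 2-121 or 2-124, 0 genes were called by limma, and without animal 2-101 or control 2-129, 2. With 2-chloromethylpyridine hydrochloride the median change was -0.03, with 0 calls by limma, 1 unadjusted p under 0.05 and 0% of all genes called. Changes ran from -0.34 for Cdhr4 to 0.46 for Myb, with Foxj1 at -0.08, Rsph1 at -0.03, Cfap126 at -0.04 and Dynlrb2 at -0.05. These chemicals share their 4 water controls.

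**Figure D5:**
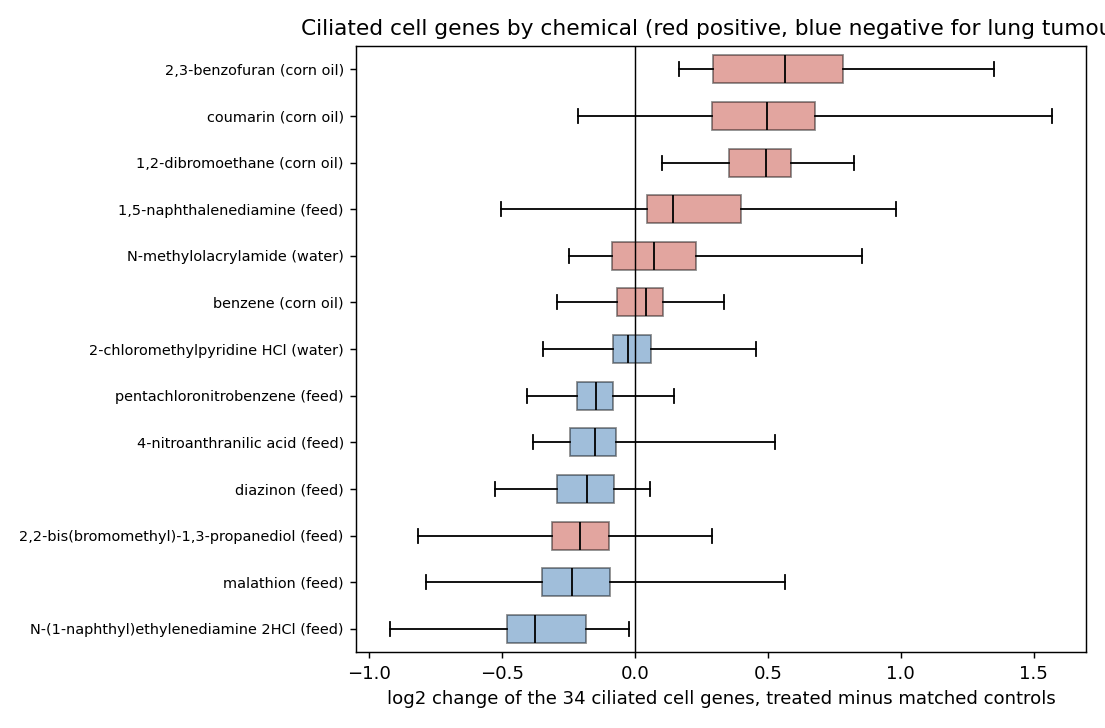
Log2 changes of the 34 tested ciliated cell genes for each of the 13 chemicals, ordered by median; boxes are quartiles with the median as a line, and whiskers run from the lowest to the highest gene. The median is above 0 for 6 of the 7 positive chemicals and below 0 for the 6 negative ones. 2,2-bis(bromomethyl)-1,3-propanediol lies at -0.21, and benzene at 0.04 turns negative with quantile normalization, with the mean over probe sets and without the 4 lower controls.

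The controls themselves differed by vehicle in the second set. Corn oil and water went with gavage and its weekly schedule, so vehicle, route and schedule cannot be told apart in comparisons with feed. With corn oil against plain feed, 11 of the 34 genes were lower and 0 higher, beside 1.79% of all genes called lower and 1.67% higher, and the median difference was -0.42. Riiad1 was lower with corn oil by a difference of -0.58 (adjusted p 0.00328), and Drc1, Meig1, Tekt1, Dynlrb2, Myb and Rsph1 were among the called genes. Without the 4 lower corn oil controls, 1 gene was called. Without feed control 2-42, 2-43 or 2-45 the count was 1, 2 or 4, and without corn oil control 2-132 or 2-134, 7 or 5. With water against plain feed, 9 were lower and 0 higher, beside 18.2% of all genes called lower and 15.5% higher. In that comparison 4924 of the 14593 genes were called, so the 9 are not read as particular to ciliated cell genes. The 3′ minus 5′ signal also differed between these controls, with means of 0.116 in water and 0.287 in feed (exact permutation test, two-sided, p = 0.0286). With that signal as a covariate, the median difference over the 34 genes was -0.297, beside -0.288 without it, and its part was not tested further. Without feed control 2-42 or water control 2-124 the count was 3, and without feed control 2-44, 14. In the first set, corn oil and feed controls gave 0 calls by limma, with 0 unadjusted p under 0.05 among the 34 genes, beside 0% of all genes. A test of whether the vehicle difference itself differed between the sets called 0 genes by limma, while 743 genes had an unadjusted p under 0.05, and the smallest adjusted p among the 34 was 0.904.

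The last comparison set the 7 positive against the 6 negative chemicals, with each chemical's mean change from its own controls as 1 value. For all 34 genes the mean change was higher over the positive chemicals, with a median difference of 0.40 where the median over all genes was 0.01. By limma 0 of the 14593 genes were called, and the smallest adjusted p over all genes and over the 34 was 0.746. Without 2,2-bis(bromomethyl)-1,3-propanediol, 1 of the 34 was called. Of the 34, 27 (79.4%) had an unadjusted p under 0.05, beside 6.46% of all genes. Hoatz had a mean change of 0.40 over positive and -0.28 over negative chemicals, a difference of 0.67 (SE 0.15, unadjusted p 0.000332). Meig1 differed by 0.78 (SE 0.20, unadjusted p 0.00122), Foxj1 by 0.40 (SE 0.12, unadjusted p 0.00585) and Rsph1 by 0.52 (unadjusted p 0.00574), and Tekt2 by the least, 0.06. All 4 corn oil chemicals were positive, so vehicle and class were partly joined. Among the feed chemicals alone, 2 positive and 5 negative, 31 of the 34 were higher, 10 had an unadjusted p under 0.05 beside 1.96% of all genes, and the median was 0.22. With vehicle as a block, 32 were higher, 2 had an unadjusted p under 0.05 beside 0.692% of all genes, and the median was 0.18. Without subtraction of controls, and with set as a block, 33 were higher and the median was 0.25. There 17 had an unadjusted p under 0.05, beside 2.65% of all genes. Coumarin, 1,2-dibromoethane and benzene were measured against controls that include the 4 lower corn oil animals. The class comparison is not given without those animals. Chemicals that share controls are not independent values, which these p-values do not take into account. The 34 genes are not independent of each other either, since in several groups they moved together within an animal. Animal 2-17, for example, was the lowest of its 4-nitroanthranilic acid group for 33 of the 34. Counts over the 34 genes, here and in the single comparisons, are therefore not counts of separate observations.

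Over the 13 chemicals, 10 of the 34 genes were never called: Foxj1, the heavy chains Dnah5 and Dnah9, Ccdc39, Ccdc113, the nexin link protein Drc1, Erich2, Hydin, Rsph4a and Tppp3. Tctex1d4 was called higher with 4 chemicals, 1,5-naphthalenediamine, 2,3-benzofuran, malathion and coumarin.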

How the data were processed

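RNA from the right lung, extracted with Trizol and Qiagen RNeasy per the labels' protocols, was hybridised to 70 Affymetrix mouse genome arrays, 1 per animal. The deposited values are log2 signals of 45101 probe sets, from 2.47 to 14.53. No label names the method that summarised and normalized them before they were deposited, which is therefore not given here. They were used as deposited. No depth applies to arrays, and the number of arrays limits the precision.

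After 64 control probe sets were left out, 34945 had 1 gene symbol, 932 several and 9160 none in the platform annotation. Symbols were updated through RefSeq (GRCm38.p6), which matched 18032 of 18193. Each gene was read from its single-gene probe set with the highest mean, and genes whose mean was above 4.25, the 30th percentile of all probe sets other than controls, were tested. One limma 3.58.1 model in R 4.3.3 held the means of 18 groups over all 70 arrays. Benjamini-Hochberg adjustment ran over the 14593 genes of each comparison. The fits were tested on simulated data. Tumour classes were compared over 13 values, each a chemical's mean minus that of its controls, 7 positive and 6 negative. Figures were drawn with Python 3.11.15 and matplotlib 3.10.9.

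The genes and lists were chosen with earlier results of these data known. All of them may be given values; in comparisons with calls they were taken by role and size of change, and in those without, Foxj1, Rsph1, Cfap126, Dynlrb2 and the extremes were named. Other lists were named by up to 3 called genes. The labels do not say whether animals shared a cage or a litter. Alternatives were the filter, the mean over probe sets, a further quantile normalization, array weights, a variance trend and a 3′ minus 5′ covariate. Others were the amount of RNA as a block, fits on the compared groups alone and leaving out each array. Between the classes each chemical was left out instead.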

Additional observations from a re-analysis of the deposited data

Results flagged for a closer look

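The 34 tested genes, their mean and the 3′ minus 5′ value were each read in the 12 groups of 4 to 8 arrays for a single array far from the others, by Dixon's rule at its 95% level. Of these 432 readings, 30 held such an array, 4 of them in the 3′ minus 5′ value, and chance alone gives about 5% of readings, 1 in 20. With 1,2-dibromoethane, animal 2-56 was low for Dnah11 at 6.797 (others 7.197 to 7.241), Hydin at 6.222 (others 6.746 to 6.805) and Cdhr4 at 8.911 (others 9.479 to 9.574). The same animal had the highest 3′ minus 5′ value of its group, 0.9892 where the others lay between 0.1355 and 0.2538, and its part in these levels was not tested. In that group animal 2-52 was low for Myb at 8.476 and Rsph4a at 6.036, and animal 2-54 for 1700016K19Rik at 8.227.

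With coumarin, animal 2-75 was low for Ccdc40 at 7.281 and Ak8 at 6.792, where the others lay between 7.39 and 7.399 for Ak8. With benzene, animal 2-90 was low for Deup1 at 4.282 and Hydin at 5.923. With malathion, animal 2-39 was low for Ccdc40 at 6.735, Hydin at 5.775 and Wdpcp at 6.244, and it had the highest 3′ minus 5′ value of its group at 0.3446. Animals 2-38 and 2-33 of that group were high for Dnah5 at 5.149 and Tekt2 at 7.392.

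With diazinon, animal 2-21 was high for Rsph9 at 9.342 and Cfap126 at 10.01, animal 2-25 high for Dnah9 at 7.292 and animal 2-24 low for Ccdc39 at 4.142. With 4-nitroanthranilic acid, animal 2-17 was low for Rsph4a at 5.916 and Spag16 at 6.69, and animal 2-13 had the highest 3′ minus 5′ value at 0.2384. With 2-chloromethylpyridine hydrochloride, animal 2-119 was low for Rsph9 at 8.307 and high for Ak7 at 8.899, and animal 2-113 high for Riiad1 at 7.624. Animal 2-10 of 2,2-bis(bromomethyl)-1,3-propanediol was low for Dnah9 at 6.896, and animal 2-109 of N-methylolacrylamide low for Tppp3 at 12.1. Among the corn oil controls of the second set, animal 2-99 had the highest 3′ minus 5′ value at 0.3391.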

How the results depend on the processing

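Each call of a ciliated cell gene was recomputed under every alternative, 1938 values in all: 1570 kept their call, 368 kept their direction and lost it, and 0 changed sign. In coumarin, Cfap126, Dynlrb2, Lrrc23, Meig1, Riiad1, Rsph1, Tctex1d4, Tekt4 and Wdpcp kept their calls under all 22 alternatives, as did Dynlrb2 in 1,2-dibromoethane under 22 and Deup1 in 2,3-benzofuran under 14. Counts of genes called higher or lower, both of ciliated cell genes and of all tested genes, came to 1440. Of these, 1159 were equal or stayed within 1.5 times, counts that remained 0 included, and 281 moved. Fits on the arrays of the compared groups alone, which have fewer arrays to estimate the spread, gave 1 gene higher with 2,3-benzofuran, 9 with coumarin, 1 with 1,2-dibromoethane, 4 with 1,5-naphthalenediamine (and 1 lower), 0 with malathion, 0 with N-methylolacrylamide, 7 for coumarin against benzene, 0 for 1,2-dibromoethane against benzene, 21 for 1,5-naphthalenediamine against N-(1-naphthyl)ethylenediamine dihydrochloride, 0 lower for 1,2-dibromoethane against coumarin and 0 lower for corn oil against feed. Array weights gave 6 higher and 1 lower with 1,5-naphthalenediamine, 1 higher with 4-nitroanthranilic acid, 1 higher and 5 lower with 2,2-bis(bromomethyl)-1,3-propanediol, 5 higher with N-methylolacrylamide, 21 between the naphthalene amines, 8 lower with N-(1-naphthyl)ethylenediamine dihydrochloride, 4 lower with malathion and 15 lower for water against feed. With malathion the count of higher genes was 0 without a filter, with the mean over probe sets and with quantile normalization. It was also 0 with the 3′ minus 5′ covariate and with the volume sent to the core as a block. The cause was not tested. Without corn oil controls 2-59, 2-60, 2-132 and 2-134, a choice made after seeing the data, 9 were higher and 1 lower with coumarin, 7 higher with 1,2-dibromoethane and 1 lower for corn oil against feed. Leaving out 1 array at a time gave 3 to 17 higher with 2,3-benzofuran, 14 to 20 with coumarin and 8 to 17 with 1,2-dibromoethane. It gave 0 to 2 higher with 1,5-naphthalenediamine, 0 to 2 with N-methylolacrylamide and 0 to 1 with malathion (0 to 2 lower). Against benzene, 10 to 14 were higher for coumarin and 5 to 15 for 1,2-dibromoethane, and between the naphthalene amines 4 to 6. Lower genes numbered 1 to 2 for 1,2-dibromoethane against coumarin, 1 to 11 for corn oil against feed and 3 to 14 for water against feed. Between the classes 1 chemical was left out at a time, which gave 0 to 1. The share of all genes called is not given for these alternatives, here or in the results above. Their counts are therefore not read as particular to ciliated cell genes. No paired analysis was possible because the animal labels share no replicate number between groups.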

Other observations

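Cell types outside the airway lining were read in the corn oil comparisons as well. With 2,3-benzofuran 4 of 8 fibroblast genes fell, with a median change of -0.57 over the 8, among them the collagen gene Col1a1 by a change of -1.05. With 1,2-dibromoethane 5 of 10 alveolar type 2 cell genes and 3 of 7 alveolar macrophage genes fell, including the sialic acid receptor Siglecf by a change of -1.07. With coumarin 3 of 12 endothelial genes fell.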
